A study of Mus musculus with 12 samples.

Results

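The splicing factor genes described here encode the SR proteins, the heterogeneous nuclear ribonucleoproteins (hnRNPs) and the proteins that recognize the branch point and the 3′ splice site. They were chosen by a rule on symbols, as the genes named *Srsf* with a number, the genes whose symbols start with *Hnrnp*, and *Tra2a*, *Tra2b*, *U2af1*, *U2af2*, *Sf3b1* and *Sf1*. The choice was made with earlier results of these data known. The rule gave 37 of the 16152 genes of the deposited count table, after 2 pseudogene symbols were left out. That table holds as many genes as the study kept after its own filter on low counts. Genes of these names below that filter were therefore absent beforehand, and all 37 were abundant enough to be tested. They comprise 8 classical SR protein genes, 5 further SR and Tra2 genes, 7 genes of the hnRNP A, B and D types, 4 of the hnRNP F and H types, 9 other hnRNP genes and 4 genes of 3′ splice site recognition.

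SR proteins bind short exonic sequences through RNA recognition motifs and recruit the spliceosome through a domain rich in arginine and serine, which favours inclusion of the bound exon. hnRNPs coat nascent transcripts and often act against SR proteins by repressing nearby splice sites, although many activate exons when bound in introns. SF1 binds the branch point, the heterodimer of U2AF2 and U2AF1 binds the polypyrimidine tract and the terminal AG, and SF3B1 then holds the U2 snRNP on the branch point. The relative amounts of these proteins shift splice site choice, and many of their genes tune their own output through alternative exons and introns that lead to degradation of the transcript.

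The libraries were made from RNA of whole, flash-frozen lungs of wild-type C57BL/6 mice of both sexes, taken before birth (E15.5 and E18.5) or after it (P5 and P8), with 3 replicates at each time-point and 12 libraries in all. Lungs of 1 time-point were litter mates, so litter and time-point cannot be told apart and the p-values measure the spread among litter mates. The comparisons ask when between E15.5 and P8 the levels of these genes changed, and whether they did so across birth, between E18.5 and P5. Whole lung mixes many cell types, so that fewer cells of a type that express a gene and less RNA of that gene per cell cannot be told apart.

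Between 41337443 and 53901957 reads per library were counted on genes, so that the lowest count of any of the 37 genes in any library was 40. Levels are given as CPM (counts scaled to the mapped reads of the library), and changes as log2 fold changes from edgeR's quasi-likelihood test after TMM scaling, over 15994 genes. Their standard errors were derived from that test, as the absolute log2 fold change divided by the square root of the F statistic. A gene was called lower or higher at a Benjamini-Hochberg FDR under 0.05, and the study's own cutoff adds an absolute log2 fold change above 1. The marker lists of lung cell types moved strongly over the same interval in which most of the splicing factor genes fell. From E18.5 to P5, 16 of 16 proliferation genes were lower, and their summed level was 3176 to 3404 CPM in the E18.5 libraries and 1224 to 1341 CPM in the P5 libraries. All 6 AT2 genes were higher (1251 to 2149 CPM summed at E18.5, 15868 to 18539.5 at P5), as were all 6 AT1, all 6 endothelial, all 6 immune and all 7 erythroid genes, while 2 of 6 mesenchymal genes were higher and none was lower. No gene of these lists was under 1 CPM in every library, and the part of these shifts in the results below was not tested. Genes of the thymus were raised in 3 libraries, at 35.0 CPM summed in E15.5 replicate 2, 235 in P8 replicate 1 and 444 in P8 replicate 2, against 4.50 to 26.7 CPM in the other libraries.

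Together, the 37 genes took 1.61%, 1.62% and 1.63% of the counted reads in the E15.5 libraries, 1.35%, 1.42% and 1.51% at E18.5, 0.777%, 0.830% and 0.819% at P5 and 0.763%, 0.804% and 0.814% at P8. The embryonic and postnatal libraries did not overlap in this share. Averaged over all libraries, single genes lay between 2.33 CPM (*Srsf12*) and 842 CPM (*Hnrnpk*), with a median of 230.4 CPM. Per kilobase of annotated exon, *Hnrnpa1* (199 CPM per kb), *Hnrnpa0* (188), *Hnrnpk* (130.2), *Hnrnpa2b1* (125) and *Hnrnpab* (115) were the most abundant, and *Srsf12* the least (0.740 CPM per kb). Among the SR genes, *Srsf2* (67.8 CPM per kb) and *Srsf1* (62.2 CPM per kb) had the highest levels on this scale. Exons of other genes overlap more than 10% of the exon bases of 5 of the genes, namely *Srsf4* (43.0%), *Hnrnpab* (29.1%), *Hnrnpf* (26.5%), *Srsf2* (25.3%) and *Hnrnpm* (14.7%), so that part of their reads cannot be assigned with certainty.

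**Figure D1:**
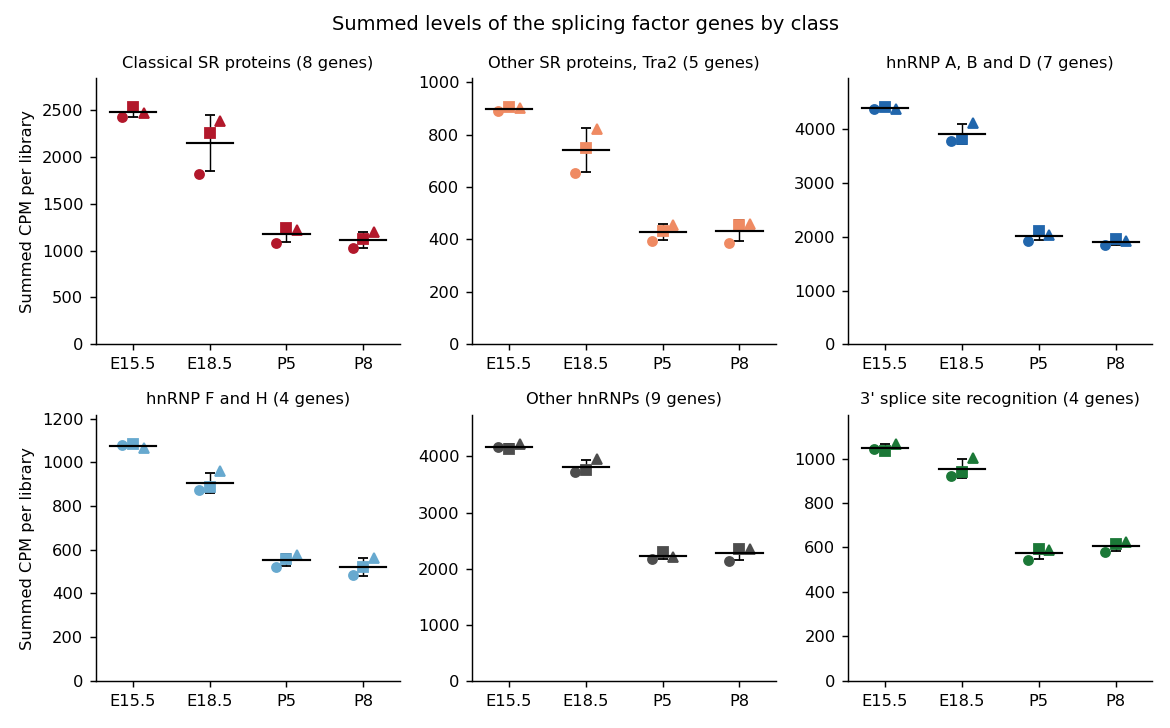
Summed CPM of the genes of each class (y axis, starting at 0) in the 12 libraries by time-point (x axis). Circles, squares and triangles are replicates 1, 2 and 3, horizontal lines are means and bars the SD (n = 3). In each of the 6 classes, the postnatal libraries lie below the embryonic ones.

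From E18.5 to P5, 36 of the 37 genes were lower and none was higher, against 35.7% of all genes tested that were lower and 35.4% that were higher. The median log2 fold change of the 37 genes was -0.77, beside -0.002 for all genes tested. Because 36 of the 37 are expressed at 20 CPM or more on average, genes of that level are a closer background. Of these, 43.1% were lower, and their median log2 fold change was -0.09. With no gene called higher by edgeR, none was higher at an unadjusted p under 0.05 either, and none was higher with DESeq2 or limma. In 36 genes each P5 library lay below each E18.5 library in CPM, and *Srsf5* was the exception; the same held for 42.6% of all genes tested. Past both cutoffs, 5 genes were lower (*Srsf12*, *Srsf7*, *Hnrnpa1*, *Hnrnpd* and *Hnrnpc*), against 9.34% of all genes tested and 7.24% of those at 20 CPM or more.

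By class, 7 of 8 classical SR genes were lower from E18.5 to P5 (median log2 fold change -0.87), 5 of 5 further SR and Tra2 genes (-0.77), 7 of 7 hnRNP A, B and D genes (-0.83), 4 of 4 hnRNP F and H genes (-0.66), 9 of 9 other hnRNP genes (-0.76) and 4 of 4 genes of 3′ splice site recognition (-0.64). Genes of the same class differed from each other by more than the class medians did. Classical SR genes ranged from -1.43 for *Srsf7* to 0.12 for *Srsf5*.

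**Figure D2:**
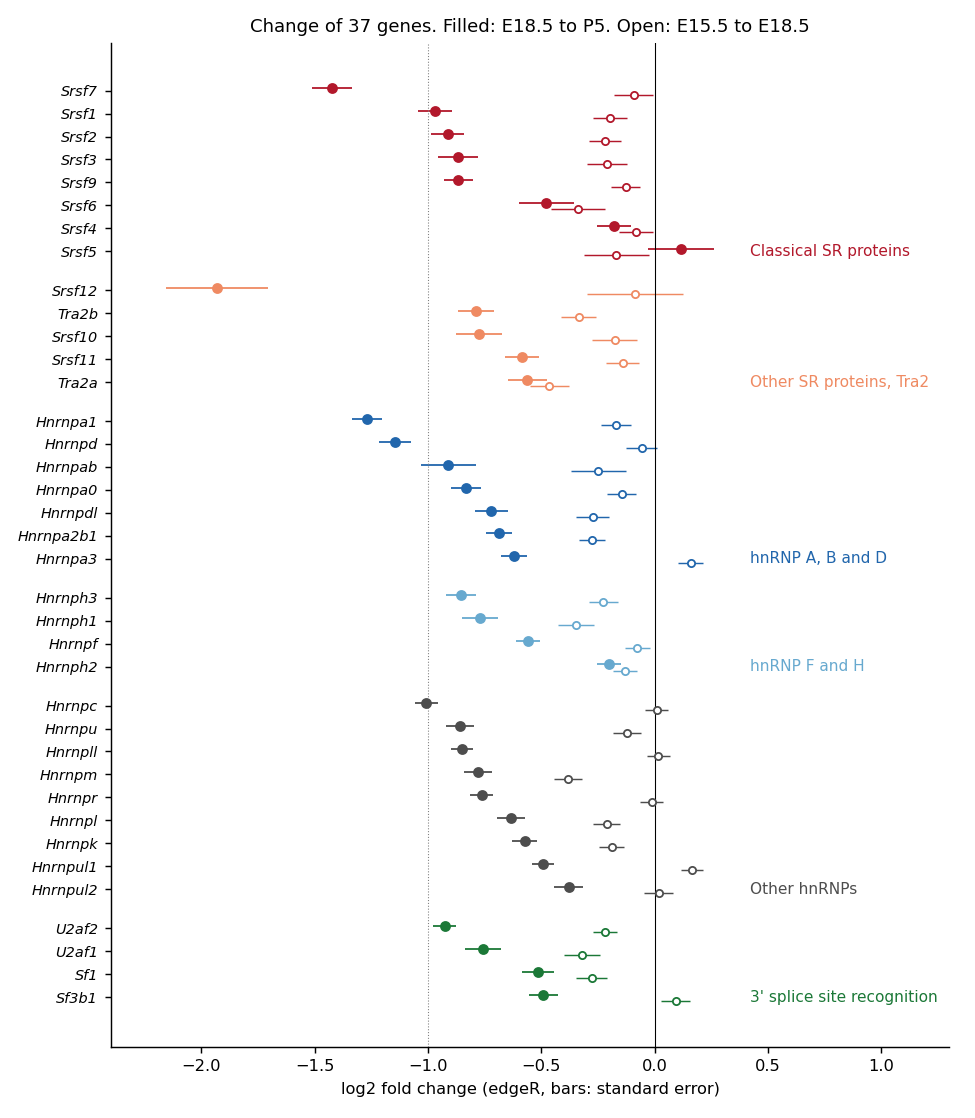
Log2 fold change (x axis, bars are the standard error) of each of the 37 genes (y axis, grouped by class) from E18.5 to P5 (filled) and from E15.5 to E18.5 (open); the dotted line marks -1. All filled points but that of *Srsf5* lie below 0, and the open points lie between -0.46 and 0.16.

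*Srsf7* (chr17:80200080-80207307, minus strand, GRCm38) encodes an SR protein with a zinc knuckle that also takes part in mRNA export and 3′ end processing. It was at 302, 342 and 313 CPM in the E15.5 libraries, 253, 312 and 329 at E18.5, 94.0, 107 and 113 at P5 and 93.8, 99.9 and 103 at P8. The 6 embryonic libraries lay above the 6 postnatal libraries, and E18.5 replicate 1 was the lowest of the embryonic ones. Across birth its log2 change was -1.43 (standard error 0.09, edgeR FDR = 3.3e-08).

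*Srsf12* (chr4:33208991-33233340, plus strand) encodes an SR protein that is known as a splicing repressor and was the least abundant of the 37 genes. It was at 4.23, 3.68 and 3.13 CPM in the E15.5 libraries, 3.59, 3.503 and 3.24 at E18.5, 0.835, 0.826 and 0.888 at P5 and 0.924, 1.65 and 1.45 at P8. The P5 libraries were close to each other and lay below every other library. The step across birth, at -1.93 on the log2 scale (standard error 0.23, edgeR FDR = 7.5e-06), was the largest of the 37 in size, and it was -1.26 on the log2(CPM + 1) scale of limma.

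*Hnrnpa1* (chr15:103240432-103246692, plus strand) encodes a splicing repressor that binds exonic and intronic silencers and often opposes SRSF1. It was at 982, 998 and 983 CPM in the E15.5 libraries, 864, 817 and 940.0 at E18.5, 332, 368 and 324 at P5 and 294, 311 and 321 at P8. Every later time-point lay below every earlier one without overlap between the libraries. Across birth its log2 change was -1.27 (standard error 0.07, edgeR FDR = 9.3e-09). The gene has processed copies elsewhere in the genome, and reads that fit a copy equally well are dropped by unique mapping, so its level is uncertain.

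*Hnrnpd* (chr5:99955935-99978938, minus strand) encodes AUF1, which binds AU-rich elements and is known for its part in mRNA decay. It was at 281, 267 and 269 CPM in the E15.5 libraries, 254, 243 and 286 at E18.5, 107, 121 and 105 at P5 and 103, 106 and 117 at P8. The embryonic libraries overlapped each other, the postnatal libraries overlapped each other, and the 2 sets were apart. Its log2 fold change was -1.15 (standard error 0.07, edgeR FDR = 3.5e-08). The neighbouring paralog *Hnrnpdl* was at 219.5, 234 and 255 CPM in the E18.5 libraries and at 122.9, 143 and 139 CPM in those of P5 and fell less, by 0.72 on the log2 scale (edgeR FDR = 2.3e-06).

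*Hnrnpc* (chr14:52073377-52104028, minus strand) encodes the protein that binds uridine tracts of nascent transcripts and competes with U2AF2 there. It was at 397, 395 and 377 CPM in the E15.5 libraries, 378, 389 and 405 at E18.5, 178, 192 and 179.7 at P5 and 171, 188 and 194 at P8. Its level did not separate E15.5 from E18.5, nor P5 from P8, and the fall lay between E18.5 and P5 (log2 fold change -1.01, standard error 0.05, edgeR FDR = 8.2e-09). It lay at the fold change cutoff, with -0.99 in DESeq2, -0.99 when E18.5 replicate 3 was left out and -0.98 when P5 replicate 3 was.

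The remaining classical SR genes differed in how far they fell. *Srsf1*, the classical activator that also works in translation and transcript surveillance, was at 462 ± 61.2 CPM at E18.5 and 222 ± 9.96 at P5 (log2 fold change -0.97, edgeR FDR = 2.4e-07). *Srsf2*, which binds within exons and is mutated in myeloid neoplasms, and *Srsf3*, the smallest of the family and an export adaptor, fell by 0.91 and 0.87 on the log2 scale, and *Srsf9* by 0.87. *Srsf6* fell by 0.48 (standard error 0.12, edgeR FDR = 0.0032), less than all of these. In the E18.5 group, replicate 1 read lowest for 7 of the 8 classical SR genes, at a median of 79.2% of the mean of the other 2 libraries, while for the 37 genes together that median was 93.2%. Replicate 1 was also the lowest P5 library for 30 of the 37 genes and the lowest P8 library for 30 of them. These counts are in CPM, before TMM scaling, and were not made over all genes tested. P5 replicate 1 and P8 replicate 1 had the lowest TMM factors of their time-points (0.950 and 0.965). Without E18.5 replicate 1, *Srsf6* fell by 0.64 and *Srsf1* by 1.06 on the log2 scale from E18.5 to P5, and the 36 calls were kept.

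*Srsf4* (chr4:131873617-131901706, plus strand) and *Srsf5* (chr12:80945504-80950507, plus strand) departed from the rest of the classical SR genes. Both proteins are close relatives of SRSF6 and carry a pair of RNA recognition motifs. *Srsf5* was at 199, 194 and 209 CPM in the E15.5 libraries, 147, 182 and 204 at E18.5, 154, 216 and 175 at P5 and 144, 164 and 217 at P8. The libraries of all 4 time-points overlapped except that those of E15.5 were close together, and within E18.5, P5 and P8 the highest library was well above the lowest. Across birth its log2 change was 0.12 with a standard error of 0.15 (edgeR FDR = 0.49), and no other comparison passed the threshold. *Srsf4* was at 26.3, 25.9 and 24.8 CPM in the E15.5 libraries, 20.998, 25.8 and 25.5 at E18.5, 19.4, 20.05 and 20.8 at P5 and 19.7, 21.5 and 20.4 at P8. The P5 libraries lay below the E18.5 libraries, with E18.5 replicate 1 just above them. The step across birth, at -0.18 (standard error 0.08, edgeR FDR = 0.049), was at the threshold, and 14 of 20 alternative settings did not pass it. An antisense gene overlaps 43.0% of the exon bases of *Srsf4*, and the strand setting of the counting is not given in the sources used here.

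**Figure D3:**
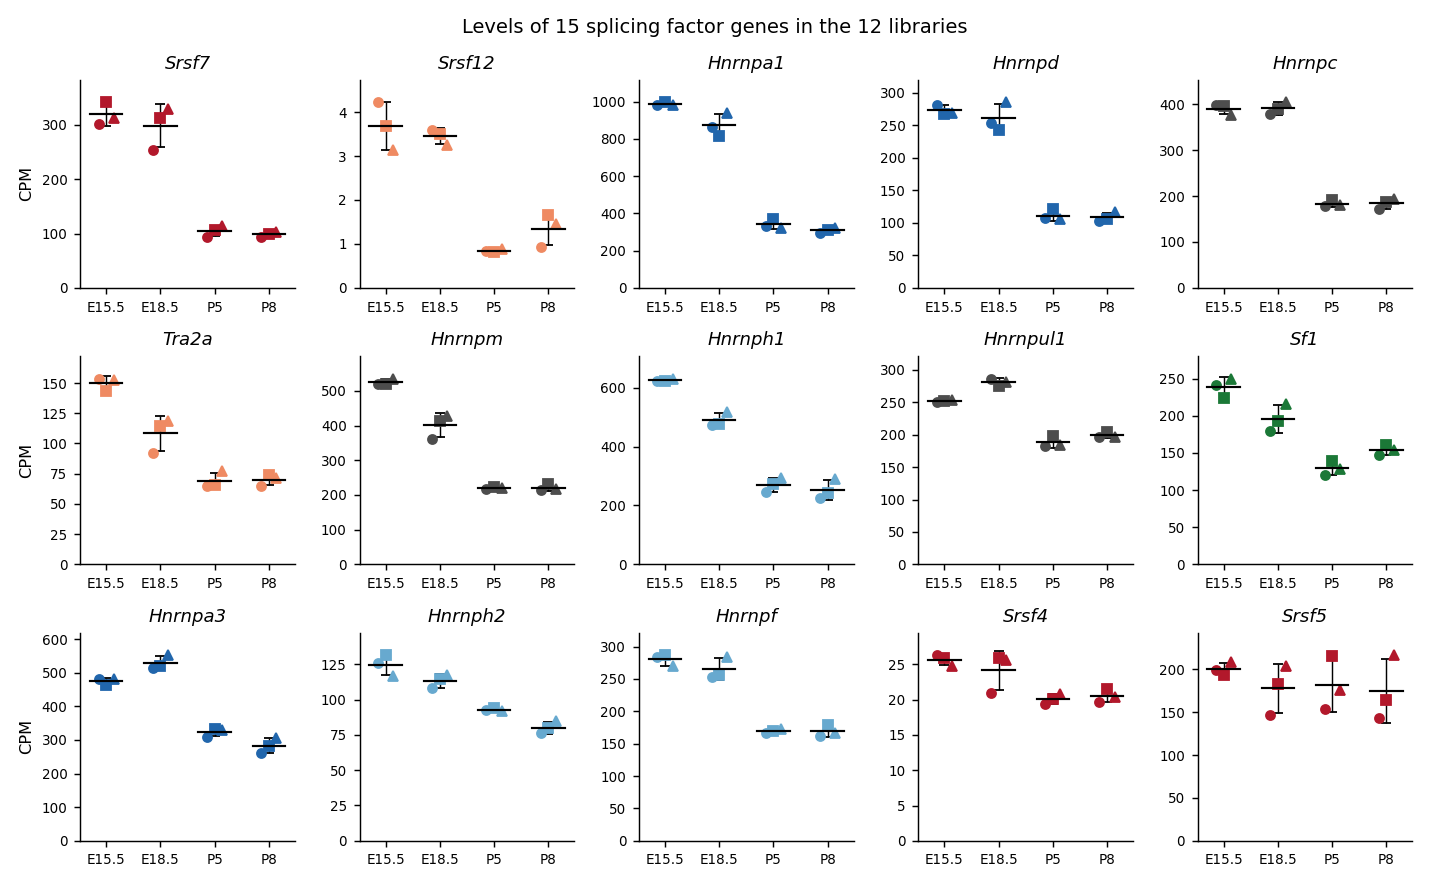
CPM (y axes, each starting at 0) of 15 splicing factor genes in the 12 libraries by time-point (x axes). Circles, squares and triangles are replicates 1, 2 and 3, lines are means and bars the SD (n = 3). *Srsf7*, *Hnrnpa1*, *Hnrnpd* and *Hnrnpc* drop between E18.5 and P5, whereas the libraries of *Srsf5* overlap throughout.

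Upstream sequences are shown for the 3 genes with the largest fall among those above 20 CPM and for *Srsf5*, the gene with no call, so that the start sites of genes that fell together can be set beside that of a gene without a call. Each run gives the 150 bases before the RefSeq start site (GRCm38.p6), 5′ to 3′ on the strand of the gene, with capitals for the motifs searched on either strand. The motif of the GC box was spelled GGGCGG. The CCAAT box was searched for as its name spells it. The core bound by ETS factors was searched for as CCGGAA, and the element bound by the TATA-binding protein was searched for as TATAAA. Neighbouring matches may overlap, as the last 2 do in *Srsf5*. The windows are chr17:80207306-80207455 (minus) for *Srsf7*, chr15:103240247-103240396 (plus) for *Hnrnpa1*, chr5:99978939-99979088 (minus) for *Hnrnpd* and chr12:80945349-80945498 (plus) for *Srsf5*.
Srsf7: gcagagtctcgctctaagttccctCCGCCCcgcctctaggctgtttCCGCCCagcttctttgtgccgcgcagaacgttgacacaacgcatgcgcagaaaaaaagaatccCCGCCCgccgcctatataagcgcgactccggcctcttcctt
Hnrnpa1: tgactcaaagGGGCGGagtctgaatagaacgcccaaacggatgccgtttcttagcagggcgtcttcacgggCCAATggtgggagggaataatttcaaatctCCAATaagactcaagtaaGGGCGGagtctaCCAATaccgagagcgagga
Hnrnpd: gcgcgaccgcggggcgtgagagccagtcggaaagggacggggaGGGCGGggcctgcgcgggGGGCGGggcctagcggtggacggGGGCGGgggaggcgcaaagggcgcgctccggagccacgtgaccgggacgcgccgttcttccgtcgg
Srsf5: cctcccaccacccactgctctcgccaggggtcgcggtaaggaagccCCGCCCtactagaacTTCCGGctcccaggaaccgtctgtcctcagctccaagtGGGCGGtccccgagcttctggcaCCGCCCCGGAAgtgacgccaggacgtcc
GGGCGG or its reverse complement CCGCCC, the letters of a GC box, is in all 4 of them, and CCAAT is in that of *Hnrnpa1*. CCGGAA or TTCCGG is in that of *Srsf5*, and none of them holds the exact letters TATAAA. Variant spellings of the TATA element were not searched for, and the run of *Srsf7* holds tatataag close to the start site. Start sites were listed for 34 of the 37 genes. In the 250 bases before any start site of a gene, GGGCGG was found for 85.3% of these 34 genes, 61.3% of genes tested and 35.4% of all genes listed. CCAAT was found for 55.9%, 39.8% and 37.5%, CCGGAA for 35.3%, 23.2% and 13.6%, and TATAAA for 8.82%, 8.37% and 14.3% in the same order. The upstream stretches held a median of 23 CpG dinucleotides for splicing factor genes, 14 for genes tested and 6 for all genes. The matches are a description of letters, counted per gene, whereas the CpG medians are over start sites.

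Among the hnRNPs of the F and H types, which bind runs of guanines, *Hnrnph3* and *Hnrnph1* fell by 0.86 and 0.77 on the log2 scale from E18.5 to P5. *Hnrnpf* (chr6:117900324-117925622, plus strand) was at 284, 287 and 269 CPM in the E15.5 libraries, 253, 257 and 284 at E18.5, 166, 169 and 172 at P5 and 162, 179 and 167 at P8. Embryonic and postnatal libraries did not overlap, and the step across birth was -0.56 (standard error 0.05, edgeR FDR = 1.2e-06). *Hnrnph2*, the X-linked copy of this family, fell least, by 0.20 (edgeR FDR = 0.0048). Of the other hnRNPs, *Hnrnpu*, a nuclear scaffold protein, fell by 0.86, *Hnrnpk*, which binds cytosine-rich sequences, by 0.57. The relatives of *Hnrnpu*, *Hnrnpul1* and *Hnrnpul2*, fell by 0.49 and 0.38. In the recognition of the 3′ splice site, *U2af2* fell by 0.93 and its partner *U2af1* by 0.76, and *Sf1* and *Sf3b1* by 0.51 and 0.49.

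From E15.5 to E18.5, 13 genes were lower and 1 was higher, against 9.87% of all genes tested that were lower and 11.6% that were higher. The median log2 fold change was -0.17, beside -0.01 for all genes tested, and no gene passed both cutoffs with edgeR, DESeq2 or limma, against 1.46% of all genes tested that were lower past both. When either E18.5 replicate 1 or E18.5 replicate 2 was left out, 7 genes were lower, and in both cases the same 6 of the 13 lower calls were lost (*Hnrnpdl*, *Hnrnph3*, *Hnrnpk*, *Hnrnpl*, *Sf1* and *Srsf2*), as was the 1 higher call. Without E18.5 replicate 3, 17 genes were lower, with *Hnrnpa1*, *Srsf1*, *Srsf3* and *Srsf6* gained. Class medians ran from -0.25 for genes of 3′ splice site recognition to -0.01 for the other hnRNP genes, with -0.18 for classical SR genes. The call of *Srsf2* (edgeR FDR = 0.046) was lost in 14 of 20 alternative settings.

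The 3 largest falls before birth were those of *Tra2a*, *Hnrnpm* and *Hnrnph1*. *Tra2a* (chr6:49243924-49264033, minus strand), which with its paralog *Tra2b* activates exons rich in GAA repeats, was at 154, 143 and 153 CPM in the E15.5 libraries, 92.0, 114 and 118 at E18.5, 64.6, 65.4 and 77.0 at P5 and 65.2, 73.8 and 71.4 at P8. It fell in 2 steps, by 0.46 before birth (standard error 0.09, edgeR FDR = 0.0038) and by 0.56 across birth (edgeR FDR = 7.6e-05). The P5 and P8 libraries overlapped.

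*Hnrnpm* (chr17:33646233-33686860, minus strand), which binds GU-rich sequences, was at 518, 519 and 536 CPM in the E15.5 libraries, 361, 414 and 427 at E18.5, 216, 224 and 219 at P5 and 214, 232 and 217 at P8. Its level fell by 0.38 before birth (standard error 0.06, edgeR FDR = 0.0020), and the libraries of the 2 embryonic time-points did not overlap. *Hnrnph1* (chr11:50376990-50386528, plus strand) was at 621, 622 and 631 CPM in the E15.5 libraries, 473, 478 and 517 at E18.5, 246, 274 and 292 at P5 and 224, 242 and 289 at P8. It fell by 0.35 before birth (standard error 0.08, edgeR FDR = 0.010), and its P5 and P8 libraries overlapped.

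*Hnrnpul1* (chr7:25721165-25754757, minus strand), which also takes part in the response to DNA damage, went against the majority before birth. It was at 250.3, 253 and 254 CPM in the E15.5 libraries, 287, 276 and 282 at E18.5, 183, 198 and 185 at P5 and 197, 204 and 197 at P8. Each E18.5 library lay above each E15.5 library, and the rise by 0.16 on the log2 scale (standard error 0.05, edgeR FDR = 0.032) lost its call in 8 of 20 alternative settings, among them every fit without an E15.5 or E18.5 library. *Hnrnpa3*, at a mean of 475 ± 9.80 CPM (SD, n = 3) in the E15.5 libraries and 529 ± 21.2 CPM in those of E18.5, had a log2 change of similar size (0.16) that did not pass the threshold (edgeR FDR = 0.057).

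The difference between the steps was tested as a contrast, the change from E18.5 to P5 minus that from E15.5 to E18.5. The 2 steps share the E18.5 libraries, so an unusual E18.5 library moves both in opposite directions. The interval from E18.5 to P5 is also the longer of the 2, and the changes were not scaled to days. A fall at a steady rate would therefore also make the contrast negative, and rates per day were not tested. The contrast was negative past the threshold for 31 of the 37 genes, against 25.2% of all genes tested, and positive for none (23.6% of all genes tested), also with DESeq2 and limma and at an unadjusted p under 0.05. Its median was -0.60, beside -0.02 for all genes tested. It was largest in size for *Srsf12* (-1.84, standard error 0.36, edgeR FDR = 0.0013), *Srsf7* (-1.33, standard error 0.15, edgeR FDR = 2.4e-05) and *Hnrnpa1* (-1.10, standard error 0.11, edgeR FDR = 1.3e-05). It did not pass for *Sf1*, *Srsf6*, *Tra2a*, *Srsf4*, *Hnrnph2* and *Srsf5*, with values from -0.24 to 0.29. The count was 24 without E18.5 replicate 3, 28 without E18.5 replicate 2 and 33 without E18.5 replicate 1.

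From P5 to P8, 2 genes were lower and 1 was higher, against 8.21% and 9.75% of all genes tested, and the median log2 fold change was -0.02. None of the 37 passed both cutoffs. Of all 15994 genes tested, 14 (0.0875%) were lower past both and 460 were higher. That background varied with the P8 libraries kept. It was 269 higher past both without P8 replicate 1 and 202 without P8 replicate 2, the P8 libraries with raised thymus genes. Without P8 replicate 3 it was 672. *Hnrnph2* (chrX:134601179-134607060, plus strand) was at 126, 132 and 117 CPM in the E15.5 libraries, 108, 114 and 118 at E18.5, 92.4, 94.0 and 91.8 at P5 and 76.1, 79.5 and 84.6 at P8. The P8 libraries lay below the P5 libraries, which lay below all embryonic libraries, and the step to P8 was -0.23 (standard error 0.05, edgeR FDR = 0.015). *Hnrnpa3* (chr2:75659261-75669407, plus strand), a relative of HNRNPA1 that also binds telomeric repeats, was at 482, 464 and 480.2 CPM in the E15.5 libraries, 513, 519 and 553 at E18.5, 308, 334 and 329.6 at P5 and 262, 282 and 306 at P8. Its P8 libraries lay below its P5 libraries by a narrow margin (log2 fold change -0.21, standard error 0.06, edgeR FDR = 0.023).

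*Sf1* (chr19:6363690-6378030, plus strand), the branch point binding protein, rose after P5. It was at 242, 224 and 250.1 CPM in the E15.5 libraries, 179, 193 and 216 at E18.5, 121, 138 and 129 at P5 and 148, 161 and 153 at P8. Each P8 library lay above each P5 library and below each embryonic library, with a log2 fold change of 0.24 from P5 to P8 (standard error 0.07, edgeR FDR = 0.035). Without the 3 libraries in which thymus genes were raised, the P8 group was a single library and *Sf1*, *Hnrnpa3* and *Hnrnph2* all lost their calls, with that library assumed to vary like the other groups. *Sf1* and *Hnrnpa3* each lost the call in 8 of 20 alternative settings and *Hnrnph2* in 4.

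Over the whole course, from E15.5 to P8, 36 of the 37 genes were lower, against 38.7% of all genes tested, and 19 passed both cutoffs, against 11.5%. None was higher (37.6% of all genes tested were), at an unadjusted p under 0.05 or with DESeq2 or limma. The log2 fold changes ran from -1.62 for *Srsf7* and -1.60 for *Hnrnpa1* to -0.26 for *Hnrnpul1*, -0.25 for *Srsf4* and -0.13 for *Srsf5* (edgeR FDR = 0.45). In 35 of the 37 genes every postnatal library lay below every embryonic library in CPM, against 32.5% of all genes tested. The exceptions were *Srsf5* and *Srsf4*.

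Alternative splicing of these genes was measured in the same reads. The deposited table gives the percent spliced in (PSI), which is the share of reads, in percent, that carry the alternative exon or the unspliced intron, for 661162 events without gene names. The study pairs 4 of these with genes described here, 2 exons of *Srsf4*, 1 intron of *Srsf5* and 1 intron of *Hnrnpf*. They were picked by the study because their PSI changed in these libraries, so their values are a description and were not tested. Intervals are 95% Wilson intervals of the reads and cover counting error only.

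One *Srsf4* exon (MmuEX0044994) had a PSI of 15.9%, 13.5% and 15.4% at E15.5, 10.1%, 13.7% and 9.67% at E18.5, 24.4%, 37.7% and 36.5% at P5 and 24.7%, 25.9% and 20.1% at P8. The postnatal libraries lay above the embryonic libraries, and P5 replicate 1 was well below the other P5 libraries. From 159 to 335 reads stood behind each value, and the intervals were 7.56 to 13.3 percentage points wide. The other *Srsf4* exon (MmuEX0044995) was at 16.5%, 15.7% and 21.7% at E15.5, 8.31%, 17.4% and 15.7% at E18.5, 29.9%, 38.6% and 38.5% at P5 and 30.4%, 24.7% and 27.3% at P8. The 2 events are not independent, because their skipping reads were the same in 9 of 12 libraries and differed by at most 3 reads in the others.

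The *Srsf5* intron (MmuINT1032207) was retained at a PSI of 29.4%, 33.0% and 37.1% at E15.5, 11.5%, 8.84% and 9.87% at E18.5, 14.1%, 17.4% and 21.3% at P5 and 19.8%, 20.96% and 32.4% at P8. The E18.5 libraries lay below all others, and the mean of 33.2% ± 3.87 (SD, n = 3) at E15.5 was followed by 10.1% ± 1.35 at E18.5, then by 17.6% ± 3.60 at P5 and 24.4% ± 6.97 at P8. Reads within the intron body followed, at 184 to 224 in the E15.5 libraries and 38 to 65.1 at E18.5. From 575 to 1170 reads stood behind each value.

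The *Hnrnpf* intron (MmuINT1020772) had a PSI of 49.1%, 40.8% and 46.6% at E15.5, 56.6%, 49.5% and 53.0% at E18.5, 69.8%, 64.1% and 74.8% at P5 and 66.0%, 65.3% and 74.1% at P8. The postnatal libraries lay above the embryonic libraries. The reads behind it were unbalanced, with 3 to 15 reads across the upstream exon-intron junction, 271 to 471 across the downstream junction and at most 0.9 in the intron body. Values of this event therefore rest on reads at its downstream end.

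**Figure D4:**
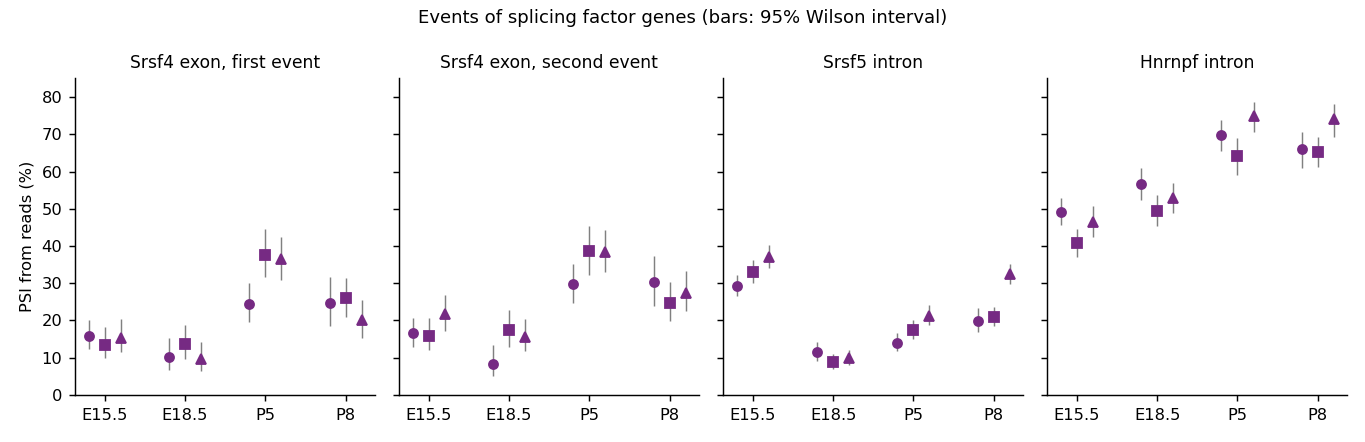
PSI computed from the corrected reads (y axis, percent, from 0) of the 4 events in the 12 libraries by time-point (x axis), with 95% Wilson intervals as bars. Circles, squares and triangles are replicates 1, 2 and 3. The *Srsf4* exons and the *Hnrnpf* intron are higher in the postnatal libraries, and the *Srsf5* intron is lowest at E18.5.

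Other genes of the splicing machinery were counted beside these, to be read against the 35.7% of all genes tested that were lower from E18.5 to P5, the 35.4% that were higher and the median of -0.002. Among genes at 20 CPM or more on average, 43.1% were lower and the median was -0.09. Of 46 genes of the snRNPs and the core spliceosome, 43 were lower from E18.5 to P5 and none was higher at an FDR under 0.05, with a median log2 fold change of -0.70. The Sm protein genes *Snrpf* (1.74 ± 0.319 CPM at E18.5, 0.627 ± 0.160 at P5) and *Snrpd1* (104 ± 7.44 and 40.4 ± 3.28 CPM) fell most, by 1.37 and 1.28 on the log2 scale. Of 17 genes of SR-related proteins, 13 were lower and 1 was higher (median -0.52), and *Pnn* and *Rnps1*, which encode peripheral proteins of the exon junction complex, fell by 0.92 and 0.89. Of 15 hnRNP-like genes under other names, 13 were lower and 1 was higher (median -0.53). Here *Tardbp*, the gene of TDP-43, fell by 1.01, and *Cirbp*, which encodes an RNA-binding protein induced by cold, rose by 1.38, from 34.1 ± 3.04 to 84.0 ± 10.4 CPM.

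Of 9 genes of kinases that phosphorylate SR proteins and import receptors that carry them into the nucleus, 3 were lower (*Tnpo3*, *Srpk1* and *Tnpo1*) and 3 were higher from E18.5 to P5, with a median log2 fold change of 0.17. These shares are near those of all genes tested (35.7% lower and 35.4% higher). *Clk1*, a nuclear kinase of SR proteins, rose by 0.75 (42.1 ± 7.06 to 67.2 ± 12.9 CPM, edgeR FDR = 0.0012), and *Srpk3*, which is known from muscle, rose by 2.19 from 0.274 ± 0.149 to 1.18 ± 0.400 CPM (edgeR FDR = 0.0035). *Clk3* was the third.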

How the data were processed

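RNA-seq was performed on whole lungs at 4 time-points with 3 replicates each. Per the study's methods, the authors mapped reads uniquely to mm10 with TopHat2 2.1.1 and Bowtie2 2.3.4, annotated them with Gencode and counted them per gene with HTSeq 0.10.0; the strand setting of the counting is not given in the sources used here. The deposited counts are raw reads per gene for 16152 genes, the number that the study kept after its own filter on low counts. The deposited CPM values cover 51825 genes and are counts scaled to the mapped reads of the library. Reads recovered from the CPM were whole within 0.1 reads for 100% of values. The authors' percent spliced in values and read counts per event came from VAST-TOOLS, whose event table carries no gene names, and the pairing with genes was taken from the study's tables.

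Counts were fitted here in R 4.3.3 with edgeR 4.0.16 (quasi-likelihood test, TMM scaling) in 1 model of 12 libraries, over the 15994 genes that reached 1 CPM in 3 or more libraries, with Benjamini-Hochberg adjustment over all of them. DESeq2 1.42.0, limma 3.58.1 on log2(CPM + 1) and log2(CPM + 0.1), library size scaling, no further filter, a replicate term and leaving out each library were alternatives. The reads recovered from CPM, and a fit without the 3 libraries with over 30 CPM of thymus genes, were added after seeing the data. Counts were simulated for the E18.5 to P5 comparison over 15994 genes. Of 100 genes changed by 0.5 on the log2 scale, 34 were called, and of 100 changed by 1.5, 81 were. Among the unchanged genes, 4 were called. In the measured counts, 5709 genes were called lower and 5660 higher in this comparison. With far fewer genes changed, the FDR adjustment was stricter in the simulation. The simulated rates therefore do not give the power for the splicing factor genes. Totals of 41337443 to 53901957 counted reads per library limit the precision of low genes such as *Srsf12*. Promoter sequences were read from RefSeq (GRCm38.p6) and exon lengths and overlaps from the GENCODE annotation of GRCm38.

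Every gene of the set may be named. Values per library were given for genes past both cutoffs from E18.5 to P5, genes called against the majority, the 3 largest calls of each other adjacent comparison and genes with a listed splicing event. Of each related list, the 2 members with the largest called change were named, and others were named after their values were seen. The genes and lists were chosen with earlier results of these data known.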

Additional observations from a re-analysis of the deposited data

Results flagged for a closer look

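Counts were present for 2 pseudogene symbols that the choice of genes left out, above the limit of 3 reads that a count of 0 allows. *Hnrnpa1l2-ps* had a lowest count of 186 over the 12 libraries and *Hnrnpa1l2-ps2* a lowest count of 46. Both were lower at P5 than at E18.5, by -1.27 (standard error 0.13, edgeR FDR = 2.6e-06) for *Hnrnpa1l2-ps* and by -1.39 (standard error 0.24, edgeR FDR = 2.1e-04) for *Hnrnpa1l2-ps2* on the log2 scale. *Hnrnpa1l2-ps* was at 10.8, 10.9 and 9.91 CPM at E18.5 and at 4.19, 4.07 and 4.06 CPM at P5. Whether these reads came from *Hnrnpa1* transcripts was not tested.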

How the results depend on the processing

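The number of genes lower from E18.5 to P5 was 35 or 36 under every alternative, with *Srsf4* the call that was lost, and 4 to 7 passed both cutoffs. From E15.5 to P8, 35 to 37 genes were lower and 16 to 22 passed both cutoffs. No called change turned its direction under any of these alternatives. From E15.5 to E18.5, leaving out 1 library gave 7 to 17 lower and 0 to 2 higher genes, DESeq2 gave 2 higher and the fit without thymus-rich libraries 0. From P5 to P8, leaving out 1 library gave 0 to 4 lower and 0 to 1 higher genes, limma gave 1 lower with either pseudocount, DESeq2 gave 2 higher, and without thymus-rich libraries 0 were lower and 0 higher. The step difference was called for 24 to 33 genes when 1 library was left out. The cause of these changes was not tested. With the replicate number as a block, 14 genes were lower and 0 higher from E15.5 to E18.5, 35 lower from E18.5 to P5 and 31 in the step difference. Over all genes tested, deviations of same-numbered libraries correlated between -0.34 and 0.30 and those of other pairs between -0.31 and 0.27, so the numbers were not taken to pair the samples. In CPM, before TMM scaling, replicate 1 had the lowest summed level of the 37 genes at all 4 time-points (13988, 11765, 6643 and 6471 CPM). It was the lowest library for 19, 26, 30 and 30 of them. The same counts were not made over all genes tested, so this is not shown to be particular to the 37 genes. Depth limits *Srsf12*, with a lowest count of 40.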
